A study of Mus musculus with 8 samples.

Results

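The genes described here encode 10 amino acid transporters of the plasma membrane: *Slc1a1*, *Slc1a4*, *Slc1a5*, *Slc3a2*, *Slc7a1*, *Slc7a5*, *Slc7a6*, *Slc7a11*, *Slc38a1* and *Slc38a2*. They were chosen by name, as carriers that bring glutamine, leucine, arginine, cystine and small neutral amino acids into T cells, and they are 10 of the 13704 genes with reads. RNA was measured in Th17 cells, helper T cells that secrete interleukin-17, obtained in culture from naive CD4+ cells of C57BL/6 mice. The cells were either wild-type (WT) or from Trim28 fl/fl mice that carried Cd4-cre (KO), in which the recombinase is expressed from a *Cd4* transgene and deletes *Trim28*, a co-factor of chromatin regulation, in cells of the T lineage. For 3 days both cultures received IL-6 at 20 ng/ml together with TGF-β at 0.5 ng/ml, and anti-CD3 was given again before RNA extraction. There was 1 library per genotype. No difference below therefore has a replicate check, and each one compares 2 libraries rather than the genotypes. The age of the mice and the number pooled per library are not given in the sources used here.

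Activated T cells grow and divide quickly and take up large amounts of amino acids. Glutamine enters through the sodium-dependent exchanger encoded by *Slc1a5* and through the sodium-coupled carriers of the Slc38 family. Leucine enters through CD98, a dimer of the glycoprotein heavy chain encoded by *Slc3a2* and a light chain such as the product of *Slc7a5*. The heavy chain brings the light chains to the cell surface and the light chains carry the substrate. Amino acids inside the cell are sensed at the lysosome by the mTORC1 kinase pathway, and the uptake of glutamine and leucine is known to be needed for the differentiation of Th17 cells.

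Reads assigned to genes numbered 6650066 (13078 genes) for WT and 6185108 (12754 genes) for KO. Levels are given as counts scaled to a library of 1000000 reads (CPM), or, where genes are compared with each other, as CPM per kilobase of the longest transcript (RPKM). A count of 3 reads, the smallest taken as shown, was 0.451 CPM in WT and 0.485 CPM in KO. *Trim28*, the deleted gene, had 4485 reads in WT and 180 in KO. The 6 T cell markers (*Cd3d*, *Cd3e*, *Cd3g*, *Cd4*, *Lck* and *Cd2*) summed to 2726 CPM in WT and 2863 CPM in KO, and 0 of the 6 were called. Of the 4 Th17 markers 2 were called lower, *Il17a* with 2226 and 381 reads and *Il17f* with 3143 and 345 reads. Markers of other cells were low in both libraries. Those of B cells summed to 11.3 and 7.11 CPM, of CD8 T cells to 7.97 and 4.69 CPM, of endothelial and stromal cells to 6.62 and 4.69 CPM, of dendritic cells to 3.61 and 4.04 CPM, of NK cells to 0.902 and 0.97 CPM and of macrophages to 0.15 and 0.485 CPM, and 0 of 4 erythroid markers had a read. Of these other markers 1 was called, the B cell gene *Cd79b* with 15 and 2 reads. After the correction for transcript length described below, *Cd79a* (-1.38) and the CD8 gene *Cd8b1* (-1.04) were called lower as well. Their part in the results below was not tested. In bulk RNA, fewer cells with a transcript and less transcript per cell cannot be told apart.

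Of the 10 transporter genes, 9 had at least 10 reads over both libraries and were tested. In the KO library *Slc1a5* and *Slc1a1* were lower, *Slc1a4* was higher, and 6 genes were not called. A gene was called where its reads differed between the libraries by at least 2-fold with a Benjamini-Hochberg adjusted p under 0.05 in a two-sided exact binomial test over 10881 genes. Among all genes tested 5.53% were called lower and 2.57% higher, against 2 and 1 of the 9 transporters. With so few genes these shares do not set the transporters apart from the rest. The median log2 fold change (KO/WT) of the 9 was -0.40, beside -0.02 over all genes tested. The exact 95% counting interval of the fold change lay below 0 for 5 transporters and above 0 for 2, and it included 0 for *Slc3a2* and *Slc38a1*. Such an interval lay below 0 for 25% and above 0 for 23.5% of all genes tested, and it covers counting error only.

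**Figure D1:**
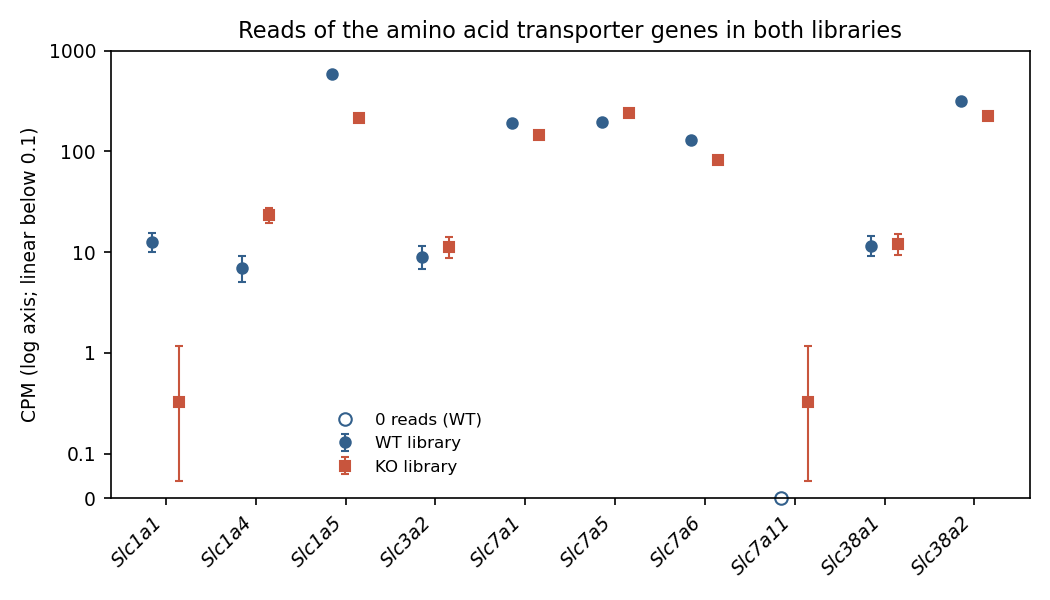
CPM of each transporter gene in the WT (circles) and KO (squares) library on a log axis that is linear below 0.1, with exact Poisson 95% intervals of counting error. *Slc1a5* fell from 585 to 217 CPM and *Slc1a1* from 12.5 to 0.323 CPM, *Slc1a4* rose from 6.92 to 23.3 CPM, and *Slc7a11* was under 3 reads in both libraries.

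The Slc1 family showed the largest differences, in both directions. *Slc1a5*, on chromosome 7 of GRCm38.p6 (16781334 to 16798274, plus strand, 9 exons), encodes the exchanger that takes up glutamine against other neutral amino acids. It had 3893 reads in the WT and 1344 in the KO library, or 585 CPM (interval 567 to 604) and 217 CPM (206 to 229). The log2 fold change was -1.43, with an interval from -1.52 to -1.34, a level 2.69-fold lower. Of the 1474 genes with at least 1000 reads in the WT library 35 (2.37%) were called lower, and 10 had a lower log2 fold change than *Slc1a5*. The set was picked by WT reads, which also enter the fold change, and the place of *Slc1a5* in it was looked up afterwards.

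*Slc1a4*, on chromosome 11 (20302180 to 20332713, minus strand, 8 exons), encodes a close relative of that exchanger which carries alanine, serine and cysteine. It had 46 reads in the WT and 144 in the KO library, or 6.92 CPM (5.06 to 9.23) and 23.3 CPM (19.6 to 27.4). Its log2 fold change was 1.74, with an interval from 1.26 to 2.26, and 3.34-fold more was found in the KO library. It was the only transporter of the 10 that was called higher. The change of *Slc1a4* exceeded that of *Slc1a5* by 3.18 on the log2 scale, with a conditional exact 95% interval from 2.68 to 3.70. Differences between 2 transporters were estimated from their reads as an odds ratio with nothing added, so they can depart from the difference of the fold changes, most of all for genes with few reads. Expressed as reads, there were 84.6 reads of *Slc1a5* for each read of *Slc1a4* in WT and 9.33 in KO.

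*Slc1a1*, on chromosome 19 (28835135 to 28913960, plus strand, 12 exons), encodes a carrier of glutamate, aspartate and cysteine best known from neurons, kidney and intestine. It had 83 reads in the WT and 2 in the KO library, or 12.5 CPM (9.94 to 15.5) and 0.323 CPM (0.0392 to 1.17). The KO value lies below the level of 3 reads. With a log2 fold change of -4.96 (interval -8.34 to -3.37) it ranked 11 from the lowest of 10881 genes. The size of this fold rests on 2 reads, and with 5 in place of 0.5 added to each count it was -3.55. Estimated from the reads in this way, *Slc1a1* minus *Slc1a4* was -6.99 (interval -10.12 to -5.00), whereas the fold changes above have 0.5 added to each count.

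The promoters, as given by RefSeq from 250 bases before to 50 bases after the annotated start on GRCm38.p6, are shown for the 2 called genes that have an entry and for *Slc7a11*, since *Slc1a4* and *Slc7a11* hold the same motif and differ in level. Capitals mark matches to TGATGNAAN, the composite site bound by C/EBP and ATF4 factors, which induce amino acid transporter genes when amino acids are short. Entries were found for 7 of the 10 genes, 9 promoters in all. The *Slc7a11* entry belongs to the curated transcript, which starts inside the gene limits given below, since those also take in predicted transcripts.
*Slc1a1* (chr19:28834885-28835184, plus strand): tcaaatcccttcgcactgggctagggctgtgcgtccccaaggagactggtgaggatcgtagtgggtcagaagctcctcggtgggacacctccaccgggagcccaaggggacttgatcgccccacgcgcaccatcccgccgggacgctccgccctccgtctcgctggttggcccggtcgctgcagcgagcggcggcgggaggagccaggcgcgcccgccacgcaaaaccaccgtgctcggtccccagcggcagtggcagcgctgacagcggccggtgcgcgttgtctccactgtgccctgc
*Slc1a4* (chr11:20332664-20332963, minus strand): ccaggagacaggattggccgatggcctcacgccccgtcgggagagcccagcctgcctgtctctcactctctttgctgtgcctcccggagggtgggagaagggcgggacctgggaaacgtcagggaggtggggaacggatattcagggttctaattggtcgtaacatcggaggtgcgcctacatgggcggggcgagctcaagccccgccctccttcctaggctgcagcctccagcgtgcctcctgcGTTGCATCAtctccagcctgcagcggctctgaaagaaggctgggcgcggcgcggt
*Slc7a11* (chr3:50443564-50443863, minus strand): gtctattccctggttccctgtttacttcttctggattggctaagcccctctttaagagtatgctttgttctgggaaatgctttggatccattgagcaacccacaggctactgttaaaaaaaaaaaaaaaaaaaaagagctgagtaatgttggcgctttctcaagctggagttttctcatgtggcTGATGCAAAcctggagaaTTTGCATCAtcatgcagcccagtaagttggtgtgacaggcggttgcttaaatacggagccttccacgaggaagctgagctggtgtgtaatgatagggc

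On both strands, TGATGNAAN was found in 3.95% of the 32851 promoters of the table and in 2 of the 7 genes. In *Slc7a11* the matches begin 66 and 48 bases before the start, on opposite strands, and in *Slc1a4* 5 bases before it on the reverse strand. The promoter of *Slc1a1* held no match to any motif searched. The E-box CACGTG, a site of MYC and related factors, occurs in 7.15% of all promoters and in 0 of the 7 genes. The core of the antioxidant response element, TGACNNNGC, occurs in 12.4% of all promoters and in *Slc7a1*, *Slc7a6* and *Slc38a2*. The shares are of promoters, whereas the transporters are counted by gene, with 9 promoters for the 7 genes. Matches are descriptions of the letters and not sites of binding.

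Of CD98 and its light chains, none was called. *Slc3a2*, the heavy chain (chromosome 19, 8706882 to 8723369, minus strand, 10 exons), had 60 and 69 reads, or 9.02 CPM (6.89 to 11.6) in WT and 11.2 CPM (8.68 to 14.1) in KO. Its log2 fold change of 0.30 had an interval from -0.21 to 0.83. *Slc7a5*, the light chain that carries leucine and other large neutral amino acids (chromosome 8, 121881146 to 121907686, minus strand, 10 exons), had 1305 and 1488 reads, or 196 and 241 CPM. It was slightly more abundant in KO, at a log2 fold change of 0.29 (0.19 to 0.40). The change of this light chain minus that of the heavy chain was -0.01 (interval -0.55 to 0.52).

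*Slc7a6* encodes a light chain that exchanges cationic for neutral amino acids (chromosome 8, 106168219 to 106198714, plus strand, 11 exons). It had 871 and 514 reads, or 131 and 83.1 CPM, and its difference of -0.66 (-0.82 to -0.50) on the log2 scale stayed under 2-fold. *Slc7a5* exceeded *Slc7a6* in change by 0.95 (counting interval 0.76 to 1.14, and -0.20 to 2.10 with an assumed coefficient of variation of 0.2), and the reads of *Slc7a5* per read of *Slc7a6* went from 1.5 to 2.89. Against the heavy chain the change of *Slc7a6* was lower by 0.96. The counting interval of the difference was -1.51 to -0.42, and -2.21 to 0.28 with that assumed variation. *Slc7a11* encodes the light chain that imports cystine in exchange for glutamate (chromosome 3, 50364936 to 50499087, minus strand, 12 exons). It had 0 reads in the WT and 2 in the KO library, both under the level of 3 reads, so no fold was computed and it was not detectable at this depth.

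*Slc7a1* encodes the cationic amino acid carrier for arginine and lysine (chromosome 5, 148327410 to 148399904, minus strand, 13 exons). It had 1280 and 905 reads, or 192 and 146 CPM, with a log2 fold change of -0.40 (-0.52 to -0.27). Its change was lower than that of *Slc7a5* by 0.69. The counting interval of the difference was -0.85 to -0.52, and -1.83 to 0.45 with an assumed coefficient of variation of 0.2. After the correction for transcript length described below, the difference was -0.35 (-0.51 to -0.18). *Slc38a2*, a sodium-coupled carrier of alanine and glutamine (chromosome 15, 96687392 to 96699728, minus strand, 16 exons), had 2097 and 1387 reads, or 315 and 224 CPM, with a log2 fold change of -0.49 (-0.59 to -0.39). *Slc38a1*, its relative that carries glutamine (chromosome 15, 96571418 to 96643438, minus strand, 16 exons), had 77 and 74 reads, or 11.6 and 12.0 CPM, with a log2 fold change of 0.05 (-0.43 to 0.53). The 2 genes lie 44 kb apart. Their changes differed by 0.54 (counting interval 0.05 to 1.03, and -0.69 to 1.76 with an assumed coefficient of variation of 0.2). In all, 7 pairs of transporters were compared, by counting intervals and by intervals at assumed variations, without a test.

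Fold changes in these libraries fell with transcript length. Spearman's rho between the log2 fold change and the length of the longest transcript was -0.37 across 10792 genes, which are not independent replicates, and the median log2 fold change was 0.29 among the shortest 10% of the genes and -0.44 among the longest 10%. The calls of *Slc1a1*, *Slc1a5* and *Slc1a4* were kept when fold changes were centred on a loess curve against length, at -4.90, -1.49 and 1.81. With that correction 4.31% of all genes were called lower and 2.46% higher. The long transcripts moved most. *Slc7a1* went from -0.40 to -0.02 (interval -0.15 to 0.10), *Slc38a2* from -0.49 to -0.18 (-0.28 to -0.09) and *Slc38a1* from 0.05 to 0.43 (-0.06 to 0.90). The median of the 9 transporters became -0.02, beside 0.00 over all genes. The small differences of *Slc7a1* and *Slc38a2* were therefore mostly of the size that genes of their length had in these libraries, while *Slc7a6* stayed at -0.60 (-0.76 to -0.44) and *Slc7a5* at 0.32 (0.22 to 0.43).

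**Figure D2:**
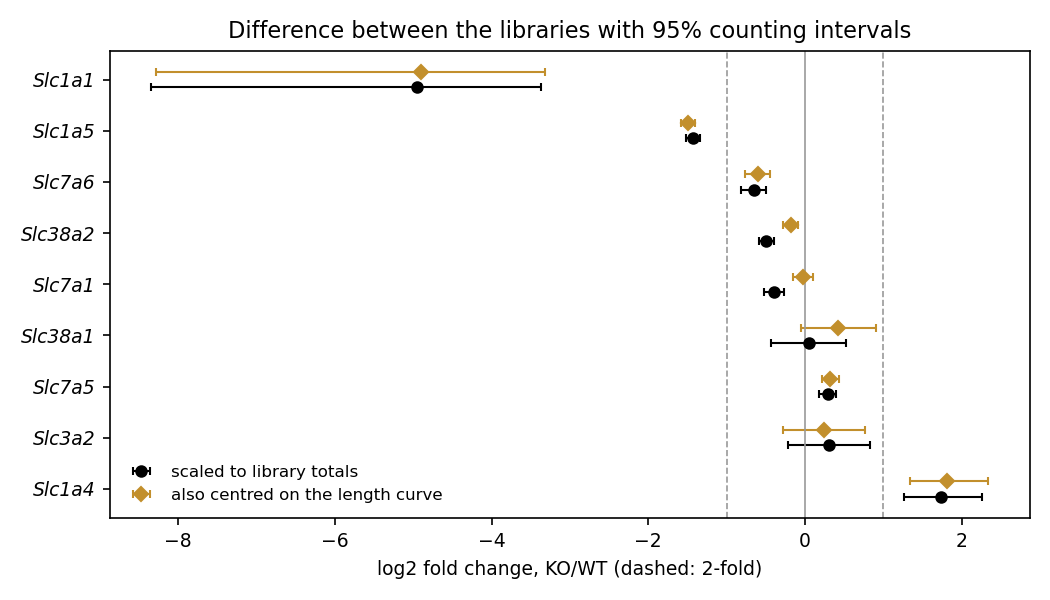
Log2 fold change (KO/WT) of the 9 tested transporters scaled to the library totals (circles) and after centring on the length curve (diamonds), with exact 95% counting intervals and dashed lines at 2-fold. *Slc1a1* and *Slc1a5* lie below the lower line and *Slc1a4* above the upper line on both scales.

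**Figure D3:**
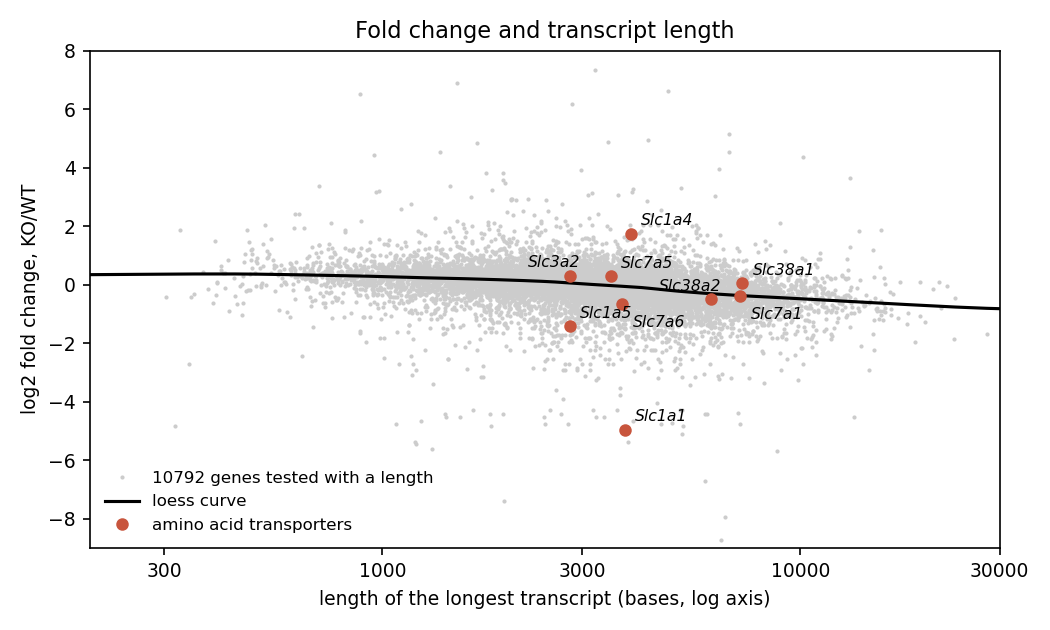
Log2 fold change (KO/WT) against the length of the longest transcript in bases (log axis) for 10792 genes, with the loess curve and the 9 tested transporters. *Slc7a1* and *Slc38a2* lie near the curve, whereas *Slc1a1*, *Slc1a5* and *Slc1a4* lie far from it.

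Together the 10 genes had 9712 reads in WT and 5929 in KO, 0.146% (Clopper-Pearson interval 0.143 to 0.149) and 0.0959% (0.0934 to 0.0983) of the libraries, a log2 fold change of -0.61 (-0.65 to -0.56). Without *Slc1a5* the sums were 5819 and 4585 reads and the log2 fold change was -0.24 (-0.30 to -0.18). *Slc1a5* alone gave 40.1% of the transporter reads in WT and 22.7% in KO. *Slc7a5* gave 13.4% and 25.1% (24.0 to 26.2), overlapping in KO with *Slc38a2* (22.3 to 24.5). The shares of *Slc38a2* (21.6% and 23.4%), *Slc7a1* (13.2% and 15.3%) and *Slc7a6* (8.97% and 8.67%) moved less. A share also moves with the other genes in the sum, here with *Slc1a5*. *Slc7a5* itself went from 196 to 241 CPM. *Slc38a2* (315 to 224 CPM) and *Slc7a1* (192 to 146 CPM) fell although their shares rose.

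Per kilobase of the longest transcript, *Slc1a5* was the highest of the 10 in both libraries, at 209 RPKM (202 to 215) in WT and 77.4 RPKM (73.3 to 81.7) in KO. In WT it was followed by *Slc7a5* (55.8 RPKM) and *Slc38a2* (51.6 RPKM), whose intervals overlapped, then by *Slc7a6* (34.9 RPKM) and *Slc7a1* (26.8 RPKM). *Slc1a1* (3.28 RPKM) and *Slc3a2* (3.21 RPKM) overlapped, as did *Slc1a4* (1.76 RPKM) and *Slc38a1* (1.59 RPKM). In KO, *Slc7a5* (68.4 RPKM) stood clear above *Slc38a2* (36.7 RPKM), *Slc7a6* (22.2 RPKM) and *Slc7a1* (20.4 RPKM) overlapped, *Slc1a4* (5.93 RPKM) overlapped *Slc3a2* (3.97 RPKM), and *Slc38a1* (1.65 RPKM) stood above *Slc1a1* (0.0851 RPKM). The order depended on the length used. With the median length of the annotated transcripts, *Slc7a5* (389 RPKM) stood above *Slc1a5* (296 RPKM) in KO, and in WT *Slc38a2* (58.5 RPKM) stood below *Slc7a6* (171 RPKM) and *Slc7a1* (97.6 RPKM).

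Levels also varied with the number of annotated transcripts. Per gene, the median WT level was 12.5 RPKM for 5899 genes with 1 curated RefSeq transcript, 6.15 RPKM for 2317 genes with 2 and 4.4 RPKM for 2189 genes with 3 or more. *Slc3a2* has 2 transcripts and *Slc38a1* has 3, and 18.0% and 18.4% of their exonic bases lie in a single transcript. *Slc38a2* and *Slc7a1* also have 2 and *Slc7a6* has 3, with 2.49%, 3.26% and 4.62% of such bases. Their WT levels were higher, at 51.6, 26.8 and 34.9 RPKM. *Slc1a1* and *Slc1a4*, with 1 transcript each, were at 3.28 and 1.76 RPKM. The CD98 heavy chain had 17.4-fold fewer reads per length than *Slc7a5* in WT and 17.2-fold fewer in KO. With the median transcript length the levels were further apart, 11.1 and 318 RPKM in WT and 13.7 and 389 RPKM in KO. The part of the transcript number in the low levels of *Slc3a2* and *Slc38a1* was not tested.

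**Figure D4:**
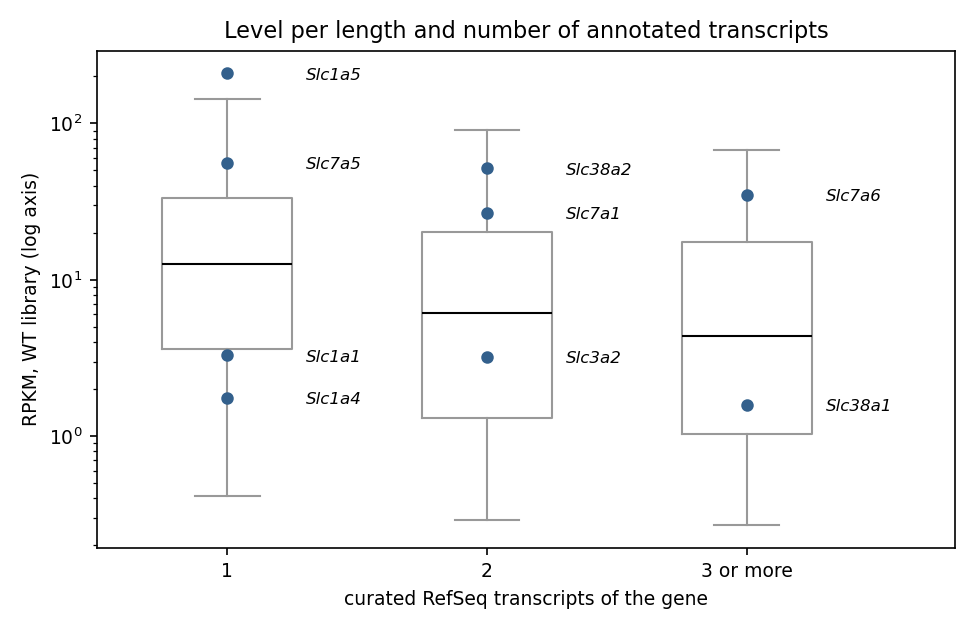
WT level in RPKM (log axis) of all tested genes by their number of curated RefSeq transcripts, as boxes of the quartiles with the median and whiskers that hold the central 90%, and of the transporters (circles). The medians are 12.5, 6.15 and 4.4 RPKM. Of the transporters with 2 transcripts or more, *Slc3a2* is at 3.21 and *Slc38a1* at 1.59 RPKM. *Slc38a2*, *Slc7a1* and *Slc7a6* are at 51.6, 26.8 and 34.9 RPKM.

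Among the 2 nearest tested genes on each side of the 10, 36 genes in all, 1 was called lower and 0 higher, beside 5.53% and 2.57% of all genes tested, and the median log2 fold change was -0.16. Nearest tested does not mean close, since the distances ran from 0.118 kb beside *Slc3a2* to 9282 kb beside *Slc7a11*. The one called is *Glis3*, a zinc finger transcription factor gene 155 kb from *Slc1a1*. It had 24 WT and 2 KO reads, the second below the level of 3 reads, and a value of -3.19 (-6.61 to -1.47). On the other side of *Slc1a1*, *Ppapdc2* had 146 and 131 reads and *Cdc37l1* had 197 and 187 reads, with log2 fold changes of -0.05 and 0.03. Beyond *Glis3*, *D19Bwg1357e* had 699 and 502 reads, at -0.37. The 35 genes that were not called lay between -1.20 and 0.86.

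**Figure D5:**
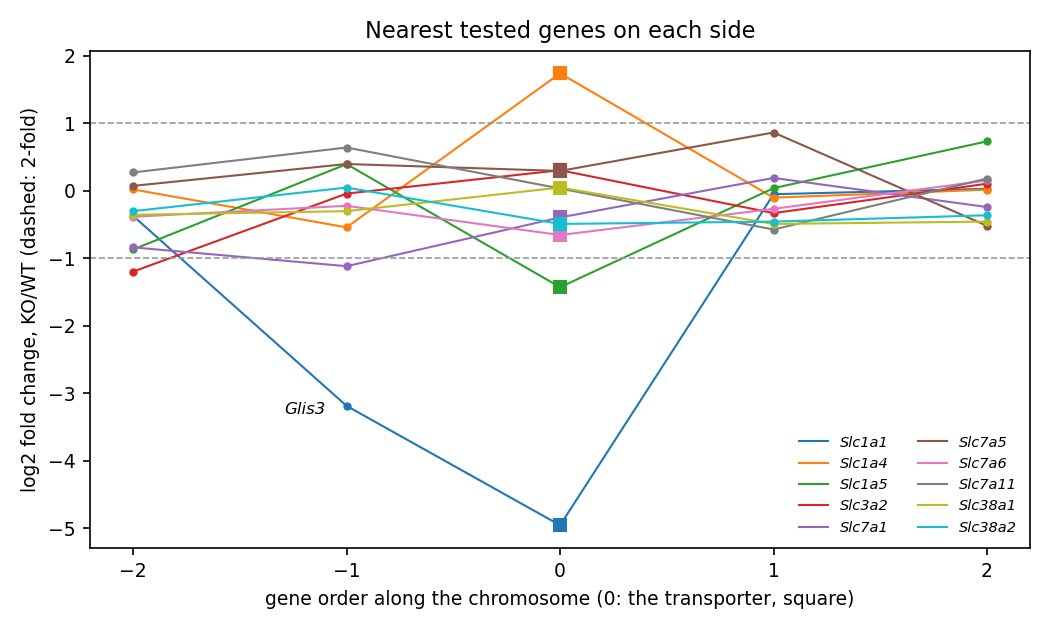
Log2 fold change (KO/WT) of each transporter (square at 0) and its 2 nearest tested genes on each side (points), in order along the chromosome, with dashed lines at 2-fold. Beside *Slc1a1*, *Glis3* is at -3.19, and no neighbour of *Slc1a5* or *Slc1a4* was called.

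Most other amino acid transporters were low or not called. Over all genes tested, 5.53% were called lower and 2.57% higher, the background for the lists that follow. Of 38 other carriers of the plasma membrane 15 had a read and 7 were tested, of which 1 was called lower and 0 higher. That one was *Slc38a6*, a relative of *Slc38a1* and *Slc38a2*, with 256 reads in WT and 64 in KO and a log2 fold change of -1.89 (-2.31 to -1.50), or -1.81 after the length correction. The most abundant of them were the taurine carrier *Slc6a6* (3082 and 2123 reads, -0.43) and the aromatic amino acid carrier *Slc16a10* (583 and 314 reads, -0.79). Of 10 lysosomal transporters, all tested, 1 was called lower, *Slc36a4* (98 and 42 reads, -1.11), and its call was lost after the length correction at -0.77. The others with the most reads were *Slc38a9*, the arginine sensor of the lysosome (293 and 181 reads, -0.59), and *Slc36a1* (251 and 217 reads, -0.10). Of 7 tested mitochondrial carriers 0 were called, among them the serine carrier *Sfxn1* (961 and 878 reads, -0.03) and the aspartate and glutamate carrier *Slc25a12* (929 and 1158 reads, 0.42).

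Of 25 genes that sense amino acids for mTORC1 23 were tested, 2 were called lower and 0 higher (over all genes 5.53% and 2.57%), and the median log2 fold change was 0.12. The genes called were *Fnip1* (623 and 237 reads, -1.29) and *Fnip2* (83 and 30 reads, -1.35), partners of folliculin, and both calls were lost after the length correction, at -0.97 each. *Sesn3*, a leucine sensor relative with 2087 and 1324 reads, was at -0.55, and *Sec13*, a subunit of the GATOR complex, with 629 and 942 reads, at 0.69. Of 17 tested carriers of other nutrients 2 were called lower, *Slc16a6* (12 and 2 reads, -2.22) and the zinc and iron carrier *Slc39a14* (32 and 12 reads, -1.27), the second of which was no longer called after the length correction, at -1.05. The transferrin receptor *Tfrc* (2932 and 3104 reads, 0.19) and the glucose transporter *Slc2a1* (1328 and 1736 reads, 0.49) were not called. Over all 186 tested solute carriers 15 (8.06%) were called lower and 7 (3.76%) higher, with a median of -0.14. *Slc1a1* had the lowest log2 fold change of these, and *Slc1a4* ranked 3 from the highest, an order looked up after the values were known.

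How far the 3 calls depend on variation between samples could not be measured, so it was assumed. With an assumed coefficient of variation of 0.2 in edgeR's exact test, *Slc1a1*, *Slc1a5* and *Slc1a4* were all called, while 1.2% of all genes were called lower and 0.597% higher. With 0.4, *Slc1a1* was called and the other two were not, and 0.0827% of all genes were called lower and 0.0643% higher. The differences between *Slc1a4* and *Slc1a5* and between *Slc1a1* and *Slc1a4* kept intervals that excluded 0 at both values.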

How the data were processed

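RNA-seq was done on WT and KO Th17 cells, 1 library each. The 6 ChIP-seq and input samples were not analysed here. The methods state that reads were mapped to mm10 with SOAP2, and the submitters' processing notes also name bcl2fastq, HTSeq and Bowtie. The authors deposited raw counts, the number of uniquely assigned reads for each gene, with no normalization. The notes give these tools no role, and the annotation and the handling of reads shared by transcripts are not given in the sources used here. A gene listed in only 1 table had 0 reads in the other.

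Counts were scaled to library totals and log2 fold changes computed with 0.5 added. An exact binomial test, two-sided (SciPy 1.17.1), with Benjamini-Hochberg adjustment was run on the 10881 genes whose reads summed to 10 or more, and genes were called at an adjusted p under 0.05 and 2-fold. Exact 95% intervals cover counting error only. Lengths came from GENCODE M21, and positions, exons and promoters from RefSeq. Of 13704 names 12841 matched a symbol, 804 an older one and 59 none, and 99.2% of tested genes had a length. Alternatives used edgeR 4.0.16, DESeq2 1.42.0 and loess (statsmodels 0.14.6, span 0.3). The loess curves were first fitted without robust iterations. After the counts of called genes from both versions had been seen, 3 robust iterations were used in the text, and the first version is given among the alternatives. The transporters and lists were chosen with earlier results of these data known. Named are every transporter, *Trim28*, *Il17a* and *Il17f*, the called and the 2 most abundant genes of each list, and the neighbours of a transporter where 1 is called. The scripts' statistics were tested on simulated counts with counting error only, so variation between samples was not part of that test. R 4.3.3 and Python 3.11.15 were used.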

Additional observations from a re-analysis of the deposited data

How the results depend on the processing

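Leaving out a replicate was not possible, and no paired analysis was possible because there was 1 library per genotype. Of 14 alternatives, 2 were added to those planned, the length and GC corrections without robust iterations. These 2 had been fitted first. The versions with 3 robust iterations were taken for the text after the called counts of both had been seen. Under the 14 alternatives there were 125 fold changes of single transporters. The assumed variations, the read minimums and the 1.5-fold limit leave each fold change as it was. Under these a call could change but a direction could not. Of the 125, 121 kept both direction and side of the threshold. A call was lost by 2 (*Slc1a4* and *Slc1a5* at an assumed variation of 0.4) and gained by 1 (*Slc7a6* at a limit of 1.5-fold), and 1 reversed. The reversed one was *Slc7a1*, at 0.042 after the length correction without robust iterations, beside -0.023 with them. TMM, DESeq2 size factors and upper-quartile scaling moved fold changes by 0.03, 0.02 and -0.01.

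The genes called lower and higher were 389 and 184 with at least 10 reads in each library, 131 and 65 at an assumed variation of 0.2, 9 and 7 at 0.4, and 1248 and 764 at 1.5-fold. After the length correction they were 465 and 266, and without robust iterations 416 and 309. The transporters called lower fell to 1 with at least 10 reads in each library, where *Slc1a1* was no longer tested, and to 1 at an assumed variation of 0.4, where 0 were called higher. Of the other amino acid transporters 24 were tested in the main fit, and 2 were called lower. The number called lower was 1 after the length or GC correction, with or without robust iterations. It was 1 at an assumed variation of 0.2 and 0 at 0.4. At 1.5-fold 4 were called lower and 1 higher, beside 1248 and 764 of all 10881 genes tested. With at least 10 reads in each library 1 was called higher, and fewer of them were tested. With so few genes these counts do not set them apart from the rest. The median of the transporters was -0.17 with at least 1 read and with at least 10 in each library, -0.023 after the length correction and 0.042 without robust iterations.

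*Slc7a5* minus *Slc3a2* reversed to 0.079 after the length correction and to 0.068 without robust iterations, within counting error both times. At assumed variations of 0.2 and 0.4 the intervals of *Slc7a6* minus *Slc3a2* (-0.96), *Slc7a5* minus *Slc7a6* (0.95), *Slc38a1* minus *Slc38a2* (0.54) and *Slc7a1* minus *Slc7a5* (-0.69) included 0, as did *Slc38a1* minus *Slc38a2* after the GC correction without robust iterations (0.49). RPKM moved beyond its counting interval for 8 of the 10 genes when the median transcript length replaced the longest. The causes were not tested.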
